A study of Caenorhabditis elegans with 6 samples.

Results

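The genes described here are the C. elegans genes that make glycerol, import inositol or regulate these responses when the surroundings become hypertonic. They were chosen by name, with earlier results of these data known, as a set of 8, of which 7 are described: the cytosolic glycerol-3-phosphate dehydrogenases gpdh-1 (F47G4.3) and gpdh-2 (K11H3.1), the inositol transporters hmit-1.1 (Y51A2D.4), hmit-1.2 (Y51A2D.5) and hmit-1.3 (M01F1.5), the kinase wnk-1 (C46C2.1), and the regulator osr-1 (C32E12.3). A platform annotation assigned 9 probe sets to these 7 genes. All 7 measured genes were among the 10251 genes tested, of 17118 genes with a probe set.

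RNA of whole animals was measured on 6 single-colour arrays, 1 for each of 6 groups. The mutant groups were daf-16(mu86) with octopamine, daf-16(mu86) without it, the double mutant ser-3(ok2007);ser-6(tm2146) with octopamine and the same double mutant without it, and the wild-type groups were N2 with and N2 without octopamine. All 6 groups share the N2 background, and none has a replicate. Synchronised animals grew for 3 days and then spent 2 days on plates with octopamine at 20 mg/mL or without it; the labels give the age as day 4 of adulthood, whereas the extraction protocol speaks of 5-day-old animals. DAF-16 is the FOXO transcription factor of the insulin pathway, and SER-3 and SER-6 are receptors for octopamine, the invertebrate counterpart of noradrenaline. The sources used here give neither the salt form of the octopamine nor the osmolarity of the plates. No group with another solute at the same strength was analysed here.

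Worms that meet a hypertonic medium lose water and recover volume by accumulating glycerol, which gpdh-1 and gpdh-2 help to make from a glycolytic intermediate. Transcription of gpdh-1 in intestine and hypodermis is low in normal medium and strongly induced by hypertonicity, so that it serves as a standard reporter of this response. Myo-inositol is another compatible solute, taken up by proton-coupled transporters of the HMIT family. WNK-1 is a kinase that controls ion transport and, with the translation regulators GCN-1 and GCN-2, the induction of gpdh-1, whereas loss of osr-1 turns on gpdh-1 without any osmotic challenge.

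Array medians of the deposited signal ranged from 25.2 to 26.0 with octopamine and from 23.8 to 25.1 without it, and each array's median was subtracted on the log2 scale before any ratio was taken. Precision is limited by the small number of arrays, and a ratio between a single pair of arrays has no replicate check and no p-value. The only test came from an additive model over all 6 arrays, fitted with limma across all genes, with terms for strain and octopamine and Benjamini-Hochberg adjustment, calling genes at an adjusted p under 0.05. Each strain contributes 1 pair, differences in the octopamine change among the 3 pairs enter the residual error, and "rose" and "fell" below refer to this test. Nothing in the labels speaks of separate cultures, and the p-values therefore cover only how much these 6 arrays vary, which may be technical. The targeted gene daf-16 was checked on 4 probe sets. The one with the greatest log2 difference was at 6.31 and 7.26 in daf-16 animals with and without octopamine, against 43.4 and 47.7 in N2. The one with the smallest was at 196 and 219 in daf-16 animals, against 269 and 274 in N2. The gene ser-3 was dim on every array, from 17.7 to 30.8, and ser-6 had no assigned probe set. The sources used here do not say where these probes lie relative to the deletions.

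With octopamine, 3 of the 7 measured genes rose and 0 fell, while 4 did not pass. The genes that rose were both glycerol-3-phosphate dehydrogenases and hmit-1.1. For comparison, 7.37% of all genes tested rose and 14.7% fell (755 and 1511 genes). With the values as deposited 956 rose and 1004 fell, and after quantile normalization 972 rose and 877 fell. The median change over the 7 genes was 0.30 on the log2 scale, against -0.06 over all genes tested. Because the members were chosen with earlier results of these data known, all genes tested are not a neutral reference for them. In RNA from whole animals, fewer cells of a type and less RNA per cell cannot be told apart.

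The gene gpdh-1, whose enzyme makes glycerol 3-phosphate under hypertonic conditions, had the greatest change of the set. Its single probe set (193659_at) had signals of 350.5 in daf-16, 204 in ser-3;ser-6 and 342 in N2 with octopamine, against 156 in daf-16, 60.6 in ser-3;ser-6 and 109 in N2 without it. Every treated array lay above every untreated one, the closest pair being treated ser-3;ser-6 and untreated daf-16. After median subtraction, such a separation was found upward for 10.7% of genes tested and downward for 21.9%. The ratios were 2.19-fold in daf-16, 3.26-fold in ser-3;ser-6 and 2.95-fold in N2. Being at least 2-fold higher was uncommon in each strain, at 0.771% of genes in daf-16, 0.985% in ser-3;ser-6 and 1.2% in N2, and 0.4% of genes were so in all 3 strains. By limma with Benjamini-Hochberg adjustment, gpdh-1 rose 2.76-fold (95% confidence interval 2.27 to 3.37, adjusted p = 0.000316), higher in 3 of 3 strains. It ranked 22nd from the highest among the genes tested.

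The paralogue gpdh-2 encodes the second cytosolic dehydrogenase, which is less strongly induced by hypertonicity. Its brighter probe set (173263_s_at) had signals of 1103.5 in daf-16, 1189.7 in ser-3;ser-6 and 1074 in N2 with octopamine, against 805 in daf-16, 674 in ser-3;ser-6 and 665 in N2 without it. Treated and untreated arrays did not overlap, and the treated ones lay closer together than those of gpdh-1. After median subtraction, where gpdh-2 also did not overlap, 10.7% of genes tested were separated upward and 21.9% downward. The fitted rise was 1.51-fold (95% confidence interval 1.32 to 1.73, limma adjusted p = 0.00314), higher in 3 of 3 strains. The other probe set of gpdh-2 (192756_s_at) had signals of 781, 733 and 828 in treated daf-16, ser-3;ser-6 and N2, against 561, 555 and 528 in the untreated animals of the same strains. It also rose when fitted among all probe sets, by 0.45 ± 0.08 on the log2 scale (SE, limma adjusted p = 0.00707). In ser-3;ser-6 the probe sets disagreed in size, with log2 ratios of 0.77 on the brighter and 0.35 on the dimmer one. Both carry a suffix for probes that match more than 1 transcript, so their signal may include other transcripts, whereas the gpdh-1 probe set has no such suffix.

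**Figure D1:**
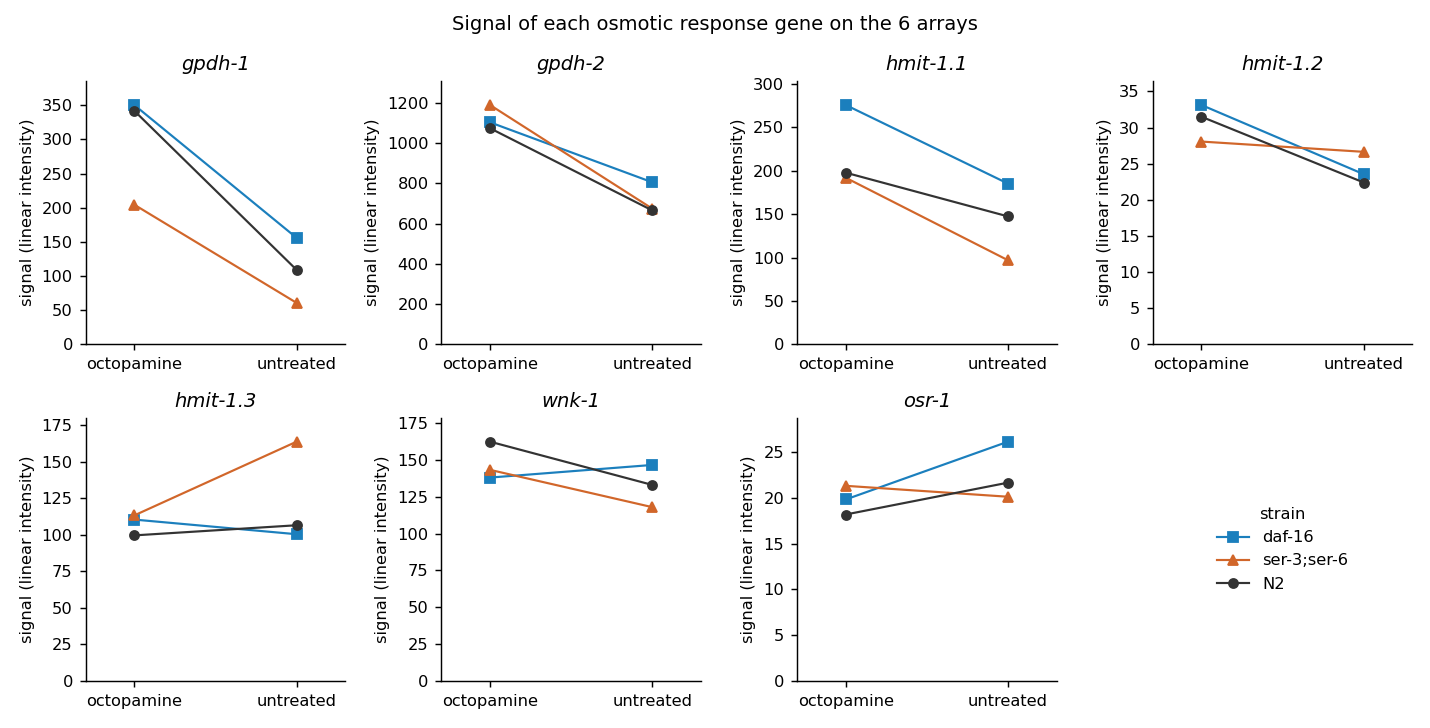
Deposited signal (linear intensity, axis from 0) of the 7 measured osmotic response genes on the 6 arrays, with octopamine-treated arrays at the left and untreated arrays at the right of each panel, 1 line per strain. For gpdh-1 the treated signals of 204 to 350.5 all lie above the untreated signals of 60.6 to 156, and for gpdh-2, hmit-1.1 and hmit-1.2 the deposited signals also do not overlap. After median subtraction hmit-1.1 overlaps, and 10.7% of all genes tested are separated upward.

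Among the inositol transporters, hmit-1.1 rose and its relatives did not pass. HMIT-1.1 and HMIT-1.2 are known from work in worms as osmoprotective transporters. The hmit-1.1 probe set (192059_at) had signals of 276 in daf-16, 192 in ser-3;ser-6 and 198 in N2 with octopamine, against 185 in daf-16, 96.8 in ser-3;ser-6 and 147 in N2 without it. The deposited signals did not overlap, but after subtraction of the array medians the treated ser-3;ser-6 array lay below the untreated daf-16 array. The ratios were 1.45-fold in daf-16, 1.92-fold in ser-3;ser-6 and 1.26-fold in N2, so no strain reached 2-fold. The fitted rise was 1.52-fold (95% confidence interval 1.24 to 1.86, limma adjusted p = 0.0131), higher in 3 of 3 strains. By size this change was close to that of gpdh-2, at ranks 258 and 267 from the highest.

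The genes hmit-1.1 and hmit-1.2 are direct neighbours, with 0 protein-coding genes between them in the gene order of assembly WBcel235. The hmit-1.2 probe set (192122_s_at) was dim, at 33.1 in daf-16, 28.1 in ser-3;ser-6 and 31.5 in N2 with octopamine, against 23.5 in daf-16, 26.6 in ser-3;ser-6 and 22.4 in N2 without it. This probe set, like those of hmit-1.3 and osr-1, carries the suffix for probes that match more than 1 transcript. The signal of each may therefore include other transcripts. Treated arrays again lay above untreated ones, also after median subtraction, where this order was found upward for 10.7% of genes tested and downward for 21.9%. The ratios were 1.37-fold in daf-16 and 1.32-fold in N2 but 1.02-fold in ser-3;ser-6. The fitted change of 0.30 ± 0.13 on the log2 scale (SE, limma adjusted p = 0.128) did not pass. Without the ser-3;ser-6 pair of arrays it was 0.43 ± 0.13 (SE, limma adjusted p = 0.0332), past the threshold.

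The remaining transporter gene, hmit-1.3, is not a neighbour of the other two. Its probe set (190858_s_at) had signals of 110.5 in daf-16, 113 in ser-3;ser-6 and 99.7 in N2 with octopamine, against 100.5 in daf-16, 164 in ser-3;ser-6 and 107 in N2 without it. The untreated ser-3;ser-6 array stood above the other 5 arrays, which lay close together. The fitted change was -0.22 ± 0.14 (log2, SE, limma adjusted p = 0.280), with a 95% confidence interval from -0.54 to 0.09. It was -0.04 without the ser-3;ser-6 pair and -0.38 without the daf-16 pair, neither of which passed. The log2 ratio was negative in ser-3;ser-6 (-0.58) and N2 (-0.19) and slightly positive in daf-16 (0.10).

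**Figure D2:**
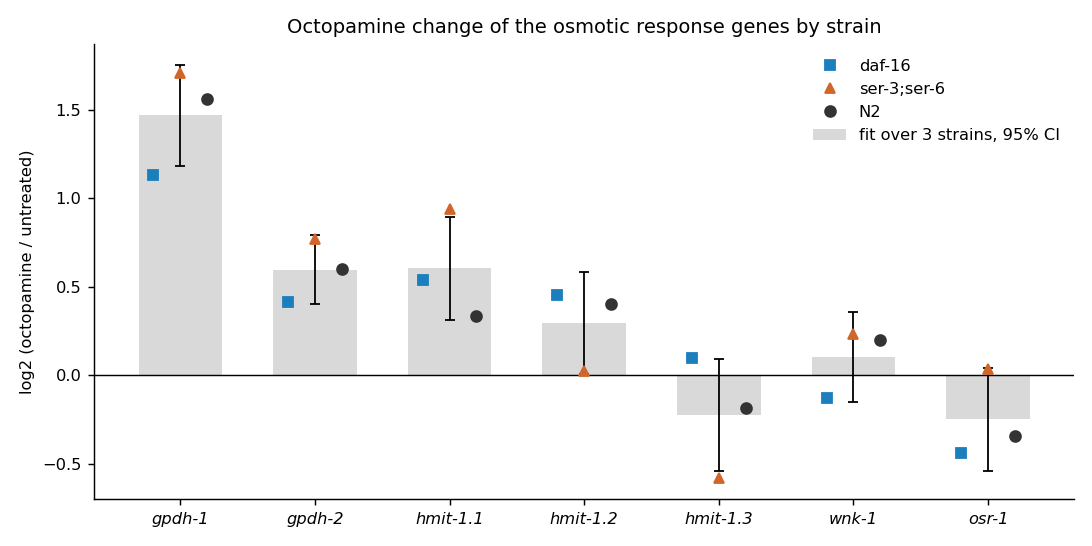
Octopamine change (log2 of octopamine over untreated, median-subtracted) of the 7 measured genes, as symbols for each strain and as a grey bar with a 95% confidence interval for the limma fit over the 3 strains. The intervals of gpdh-1, gpdh-2 and hmit-1.1 lie well above 0; that of hmit-1.2 lies barely above 0 before adjustment and its adjusted p of 0.128 did not pass; those of hmit-1.3, wnk-1 and osr-1 include 0.

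The regulators did not pass. The kinase gene wnk-1, which regulates ion transport and cell volume, had signals on its brighter probe set (174667_at) of 138 in daf-16, 143 in ser-3;ser-6 and 162.5 in N2 with octopamine, against 147 in daf-16, 118 in ser-3;ser-6 and 133 in N2 without it. Treated and untreated signals overlapped. The fitted change was 0.10 ± 0.11 (log2, SE, limma adjusted p = 0.542), with a 95% confidence interval from -0.15 to 0.36, and leaving out each strain pair in turn gave 0.04 to 0.22. The other wnk-1 probe set (190424_at) had signals of 140 in daf-16, 166 in ser-3;ser-6 and 149 in N2 with octopamine, against 119.2 in daf-16, 129 in ser-3;ser-6 and 128 in N2 without it, and its fitted change of 0.21 ± 0.10 did not pass either (SE, limma adjusted p = 0.162). The probe sets differed in sign in daf-16, with log2 ratios of -0.13 on the brighter and 0.20 on the dimmer one.

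The gene osr-1, a negative regulator of the osmotic response that acts upstream of UNC-43 and SEK-1, was near the lower limit of the filter, a mean signal of 15.5. Its probe set (191522_s_at) had signals of 19.8 in daf-16, 21.3 in ser-3;ser-6 and 18.2 in N2 with octopamine, against 26.2 in daf-16, 20.1 in ser-3;ser-6 and 21.7 in N2 without it. Signals overlapped between treatments. The fitted change of -0.25 ± 0.13 did not pass (log2, SE, limma adjusted p = 0.193), and without the ser-3;ser-6 pair it was -0.39 ± 0.13, just past the threshold (limma adjusted p = 0.0485).

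**Figure D3:**
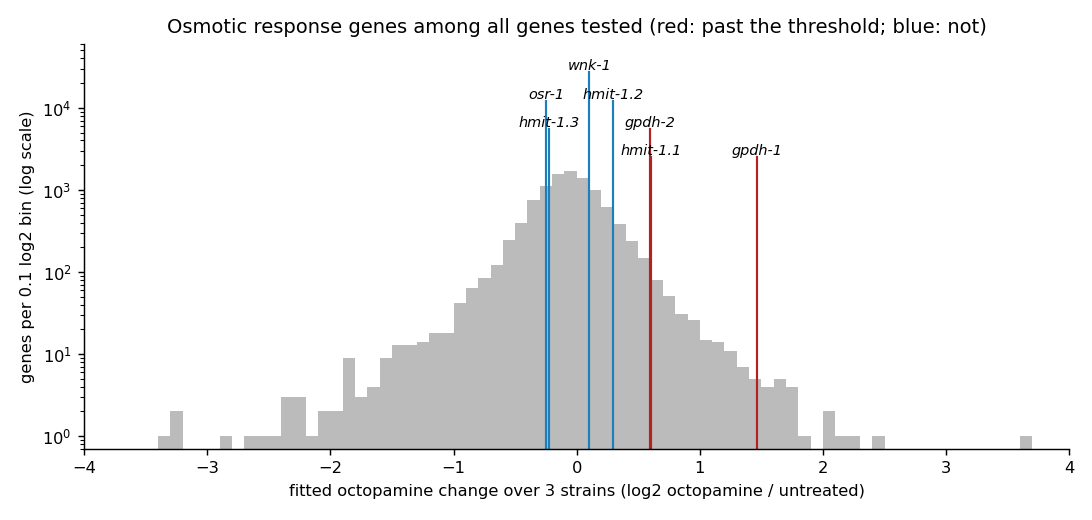
Distribution of the fitted octopamine change over the 10251 genes tested (grey bars, log2 bins, log-scaled number of genes), with a vertical line at the change of each measured osmotic response gene, red where it passed the threshold and blue where it did not. The line of gpdh-1 at 1.47 lies far into the upper tail, those of gpdh-2 and hmit-1.1 at 0.60 lie on the upper shoulder, and the other 4 lie within the body of the distribution.

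The strains were then compared with each other over both treatments. Of the 7 genes, 1 was lower and 0 were higher in ser-3;ser-6 than in N2 by the same limma fit, and 0 of 7 passed between daf-16 and N2, where 1 (hmit-1.1) had an unadjusted p under 0.05. In ser-3;ser-6 hmit-1.1 also had an unadjusted limma p under 0.05, in the opposite direction, and did not pass. Among all genes tested 2.22% were lower and 0.4% higher in ser-3;ser-6, while 0.205% were lower and 0.039% higher in daf-16. Both comparisons share the N2 arrays. The gene lower in ser-3;ser-6 was gpdh-1, at 0.55 times the N2 level (95% confidence interval 0.43 to 0.71, limma adjusted p = 0.0365), lower in 2 of 2 treatments. Its log2 difference from N2 was -0.78 with octopamine and -0.93 without it. This call was lost after quantile normalization (limma adjusted p = 0.0517) and without the mean-variance trend in the fit (limma adjusted p = 0.0620). For daf-16 the log2 difference of gpdh-1 from N2 was 0.04 with octopamine and 0.47 without it, and the fitted 0.25 ± 0.15 did not pass (SE, limma adjusted p = 0.895).

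The other genes kept no common order of strains. For hmit-1.1 the untreated signal was lowest in ser-3;ser-6 and highest in daf-16, with fitted log2 differences from N2 of -0.38 ± 0.15 in ser-3;ser-6 (SE, limma adjusted p = 0.202) and 0.38 ± 0.15 in daf-16 (SE, limma adjusted p = 0.764). For hmit-1.3 the difference from N2 was 0.54 in untreated and 0.15 in treated ser-3;ser-6 animals, and the fitted 0.34 ± 0.17 did not pass (SE, limma adjusted p = 0.277). For wnk-1 the fitted differences of -0.24 ± 0.14 in ser-3;ser-6 and -0.07 ± 0.14 in daf-16 did not pass either. For gpdh-2, hmit-1.2 and osr-1 the fitted differences of either mutant from N2 lay between -0.02 and 0.18.

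Whether the octopamine change itself depends on the strain could not be tested, since a term for each combination leaves no residual degrees of freedom. As values, the log2 ratio of gpdh-1 in N2 exceeded that in daf-16 by 0.43 and fell short of that in ser-3;ser-6 by 0.14. That of gpdh-2 exceeded daf-16 by 0.19 and fell short of ser-3;ser-6 by 0.17. For hmit-1.1 the N2 ratio was the smallest of the 3, by 0.20 against daf-16 and by 0.60 against ser-3;ser-6. The strain with the highest ratio was ser-3;ser-6 for gpdh-1, hmit-1.1, wnk-1, osr-1 and the brighter probe set of gpdh-2, but on the other probe set of gpdh-2 it had the lowest. It was daf-16 for hmit-1.2 and hmit-1.3.

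The remaining genes of glycerol, inositol and trehalose metabolism and of osmotic regulation were taken from 6 lists. Of 41 listed genes outside the set of 8, 35 were tested, of which 5 rose, 4 fell and 26 did not pass, and their median change was 0.08, against -0.06 over all genes tested. The shares to read these and the following list counts against are the 7.37% of all genes tested that rose and the 14.7% that fell. They do not apply to counts at an unadjusted p under 0.05, for which no share over all genes was taken. The lists too were chosen with earlier results of these data known, so these shares are not a neutral reference for them.

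In glycerol metabolism, 4 of 7 listed genes were tested, with 3 rising, gpdh-1 and gpdh-2 among them, and 1 falling. The median change of the 4 was 0.49. The falling one was gpdh-3 (listed as T25G3.4), which encodes the mitochondrial enzyme that oxidises glycerol 3-phosphate, the product of GPDH-1 and GPDH-2. Its signals were 257 in daf-16, 261 in ser-3;ser-6 and 235 in N2 with octopamine, against 355 in daf-16, 338 in ser-3;ser-6 and 338 in N2 without it. Treated arrays lay below untreated ones, an order found downward for 21.9% of genes tested after median subtraction. The gpdh-3 change was -0.51 ± 0.09 (log2, SE, limma adjusted p = 0.00641). The gpdh-3 probe set, like the brighter one of R11F4.1 and those of ttx-7 and tre-2 below, carries the suffix for probes that match more than 1 transcript. None of these genes had a value with shared probe sets left out. The putative glycerol kinase gene R11F4.1 had a change of 0.38 ± 0.12 at the edge of the threshold (SE, limma adjusted p = 0.04998), and its second probe set, below the filter, had negative ratios in each strain. This call was lost without the N2 pair (limma adjusted p = 0.281), without the daf-16 pair (limma adjusted p = 0.125), with no filter (limma adjusted p = 0.0604) and with its probe sets averaged (limma adjusted p = 0.510).

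In inositol metabolism, 1 of 5 genes rose, which was hmit-1.1, and 1 fell, and the median was -0.20. The falling gene was ttx-7, the myo-inositol monophosphatase that releases free inositol, at 813 in daf-16, 673 in ser-3;ser-6 and 854 in N2 with octopamine, against 1021 in daf-16, 931 in ser-3;ser-6 and 914 in N2 without it. Its change was -0.36 ± 0.08 (log2, SE, limma adjusted p = 0.0203), lower in 3 of 3 strains, but it did not pass after quantile normalization (limma adjusted p = 0.0594) or without the daf-16 pair (limma adjusted p = 0.0517). The inositol-phosphate synthase gene inos-1 had -0.20 ± 0.10 and did not pass.

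Trehalose is a disaccharide that also protects worms from water loss. Of 8 genes 0 rose by limma and 2 fell, both of them trehalases, which split it, and at an unadjusted p under 0.05 there were 1 higher and 3 lower. The trehalase gene tre-1 had signals of 346 in daf-16, 312 in ser-3;ser-6 and 287 in N2 with octopamine, against 447 in daf-16, 419.9 in ser-3;ser-6 and 502 in N2 without it, a change of -0.59 ± 0.11 (log2, SE, limma adjusted p = 0.00841). For tre-2 the change was -0.38 ± 0.10 (SE, limma adjusted p = 0.0266), lost after quantile normalization (limma adjusted p = 0.116), without the N2 pair (limma adjusted p = 0.128) and without the daf-16 pair (limma adjusted p = 0.155). The trehalose-6-phosphate synthase gene tps-1 had 0.30 ± 0.11 and did not pass on its brighter probe set (limma adjusted p = 0.0938), although its other probe set did, at 0.38 ± 0.11 (limma adjusted p = 0.0363), while tps-2 had -0.02 ± 0.10. The trehalase gene tre-3 had -0.34 ± 0.11 and did not pass (SE, limma adjusted p = 0.0628).

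The WNK and translation branch had 0 genes rising and 0 falling of 7 tested with limma, where 1 had a positive and 0 a negative change at an unadjusted p under 0.05. The one nearest to the threshold was gcn-1, a translation regulator, at 0.35 ± 0.11 (log2, SE, limma adjusted p = 0.0546), and it passed with the values as deposited (limma adjusted p = 0.0317) and after quantile normalization (limma adjusted p = 0.0260). With its probe sets averaged gcn-1 had 0.16 (limma adjusted p = 0.283) and without the daf-16 pair 0.23 (limma adjusted p = 0.387). The cation chloride cotransporter genes kcc-1, kcc-3 and nkcc-1 ranged from -0.10 to 0.18.

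**Figure D4:**
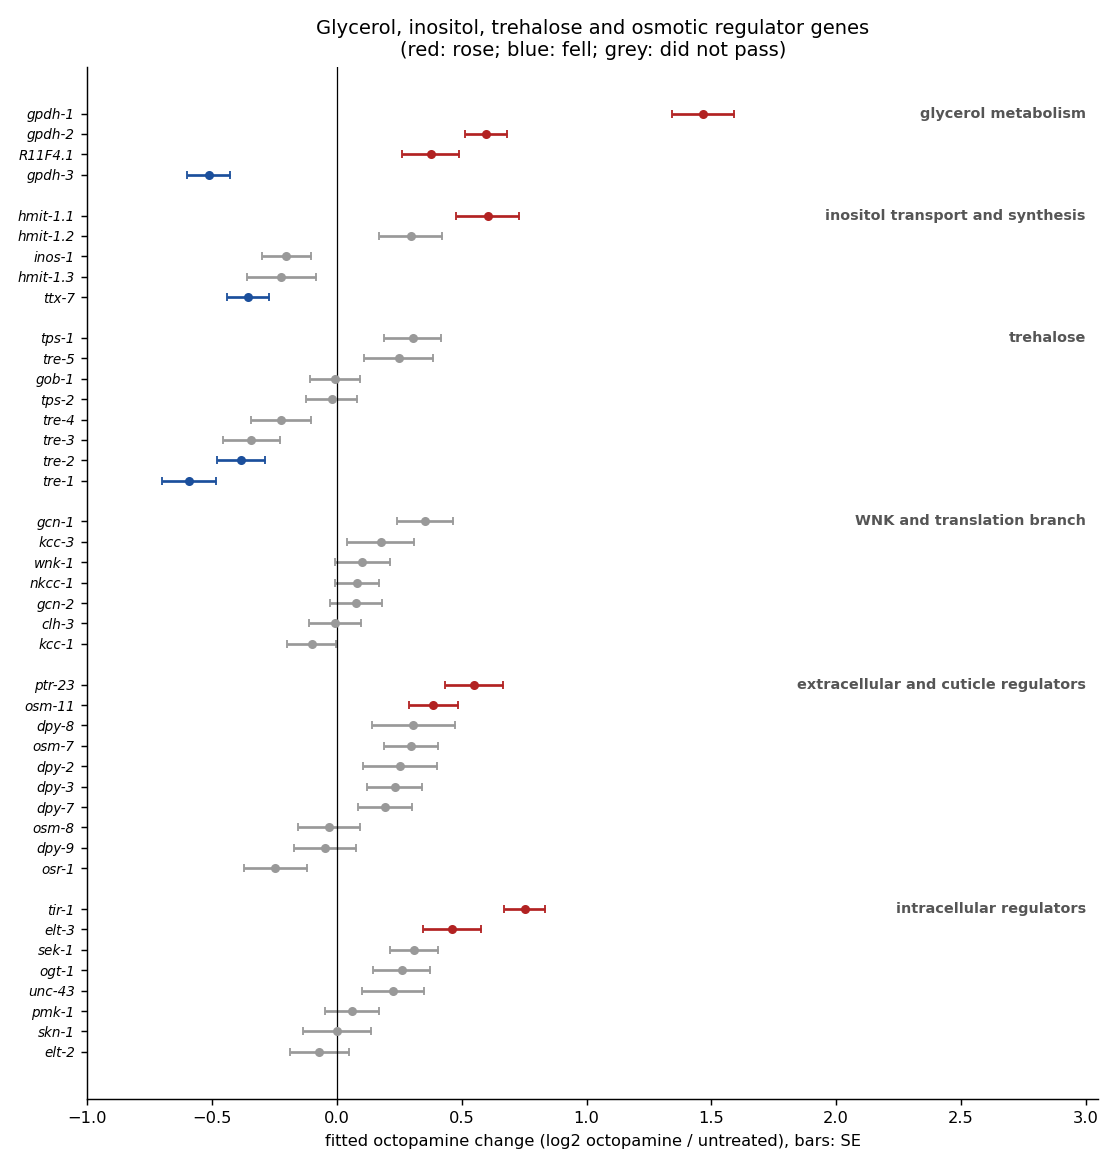
Fitted octopamine change (log2 of octopamine over untreated, points, with SE as bars) of the tested genes in 6 lists of glycerol, inositol and trehalose metabolism and of osmotic regulation. Red points rose, blue points fell and grey points did not pass; gpdh-1 at 1.47 is the farthest from 0, and the blue points are gpdh-3, ttx-7, tre-1 and tre-2.

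Of 10 extracellular and cuticle regulators, osr-1 included, 3 were higher and 0 lower at an unadjusted p under 0.05 in limma. After adjustment 2 rose and 0 fell. These were osm-11, a secreted protein whose loss turns on the response, at 0.39 ± 0.10 (log2, SE, limma adjusted p = 0.0256), and ptr-23, a patched-related protein needed for the effect of losing osm-8, at 0.55 ± 0.11 (log2, SE, limma adjusted p = 0.0130). The second probe set of osm-11 gave 0.40 ± 0.09, but the call was lost without the N2 pair (limma adjusted p = 0.152) and without the mean-variance trend (limma adjusted p = 0.0549). For ptr-23 a second probe set past the filter gave 0.01 ± 0.12 and another -0.03 ± 0.16, so its rise rests on 1 probe set. That probe set carries the suffix for probes that match more than 1 transcript, so its signal may include other transcripts. With shared probe sets left out, the ptr-23 change was 0.0056 and did not pass (limma adjusted p = 0.98). The ptr-23 call too was lost without the N2 pair (limma adjusted p = 0.0921). The measured annular furrow collagens, whose loss turns on gpdh-1, did not pass: dpy-2, dpy-3, dpy-7 and dpy-8 had changes of 0.19 to 0.31 and dpy-9 of -0.05. The gene dpy-10, also listed, had no matched probe set.

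Of 8 intracellular regulators 2 rose and 0 fell, with 4 higher and again 0 lower at an unadjusted p under 0.05 in limma. The adaptor gene tir-1, which acts at the top of the p38 kinase pathway, had signals of 518 in daf-16, 805 in ser-3;ser-6 and 534 in N2 with octopamine, against 316 in daf-16, 476 in ser-3;ser-6 and 274 in N2 without it. Every treated array lay above every untreated one, an order found upward for 10.7% of genes tested after median subtraction. In the fit tir-1 rose by 0.75 ± 0.08 on the log2 scale (SE, limma adjusted p = 0.000970). Its second probe set also passed, at 0.58 ± 0.16 (SE, limma adjusted p = 0.0334), but was less even across strains, with log2 ratios of 1.01 in daf-16, 0.15 in ser-3;ser-6 and 0.57 in N2. The measured kinase genes downstream of it did not pass, with sek-1 at 0.31 ± 0.10 (SE, limma adjusted p = 0.0546, and 0.0362 with the values as deposited) and pmk-1 at 0.06 ± 0.11. The kinase gene nsy-1, also listed, had no matched probe set. The hypodermal GATA factor gene elt-3 rose by 0.46 ± 0.12 (SE, limma adjusted p = 0.0280), but its second probe set gave 0.13 ± 0.12, and the call was lost without the N2 pair (limma adjusted p = 0.156) and without the daf-16 pair (limma adjusted p = 0.102). The intestinal GATA factor gene elt-2 had -0.07 ± 0.12.

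Markers of the tissues in which gpdh-1 is induced moved with octopamine in part. Of 6 intestine markers 1 rose (ifb-2) and 1 fell (vha-6), and their summed signal was 6833 to 7884 with octopamine and 6325 to 8011 without it. Most of this sum was asp-1 alone, at 5388 to 6407 with octopamine and 5057 to 6403.5 without it. Of 5 tested hypodermis markers of 6 listed, 2 rose (col-12 and elt-3) and 1 fell (col-19), with summed signals of 1229 to 1664 with and 1139 to 1504 without octopamine. In body wall muscle 1 of 5 rose (myo-3), in neurons 1 of 4 tested (egl-3), in germline 0 of 5 (1 higher and 1 lower at an unadjusted p under 0.05 in limma) and in sperm 0 of 1 tested, and 0 genes of these 4 lists fell. Over all genes tested, 7.37% rose and 14.7% fell after adjustment, and no share was taken at an unadjusted p. No marker was at 0. As a measure of RNA integrity, the 3' to 5' signal ratio of ubiquitin was 5.74 to 6.23 with octopamine and 5.32 to 5.48 without it. The same ratio overlapped between treatments for actin, at 1.79 to 2.00 with octopamine and 1.69 to 2.14 without it, and for GAPDH, at 1.03 to 1.09 with octopamine and 0.919 to 1.24 without it. The part of these ratios in the results was not tested.

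The genes most like gpdh-1 over the 6 arrays were found by the distance between log2 values centred on each gene's mean. The nearest was the uncharacterised Y38E10A.14, at a distance of 0.44, with log2 ratios of 0.84 in daf-16, 1.495 in ser-3;ser-6 and 1.12 in N2. Next came the aquaporin aqp-8 at 0.70, the acyl-CoA synthetase acs-2 at 0.77, parg-2 (a poly(ADP-ribose) glycohydrolase) at 0.84 and the profilin pfn-3 at 0.85. In aqp-8, a water channel, the ratios were 1.38 in daf-16, 1.01 in ser-3;ser-6 and 2.08 in N2, so the strain order differed from that of gpdh-1. In acs-2 they were 0.55 in daf-16, 1.71 in ser-3;ser-6 and 0.99 in N2. The probe sets of Y38E10A.14 and pfn-3 carry the suffix for shared probes.

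For hmit-1.1 the nearest genes were enpp-1 at 0.25, R07E5.4 at 0.27, ZK673.1 at 0.33, the collagen col-150 at 0.35 and the C-type lectin clec-7 at 0.37. Each was at its lowest in untreated ser-3;ser-6 animals, as hmit-1.1 was, a likeness favoured by choosing genes for closeness over these same arrays. The log2 ratios of enpp-1 were 0.28 in daf-16, 0.84 in ser-3;ser-6 and 0.39 in N2, beside 0.54, 0.94 and 0.34 for hmit-1.1 in the same strains. The distance is a description over 6 arrays that differ in treatment and strain.

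**Figure D5:**
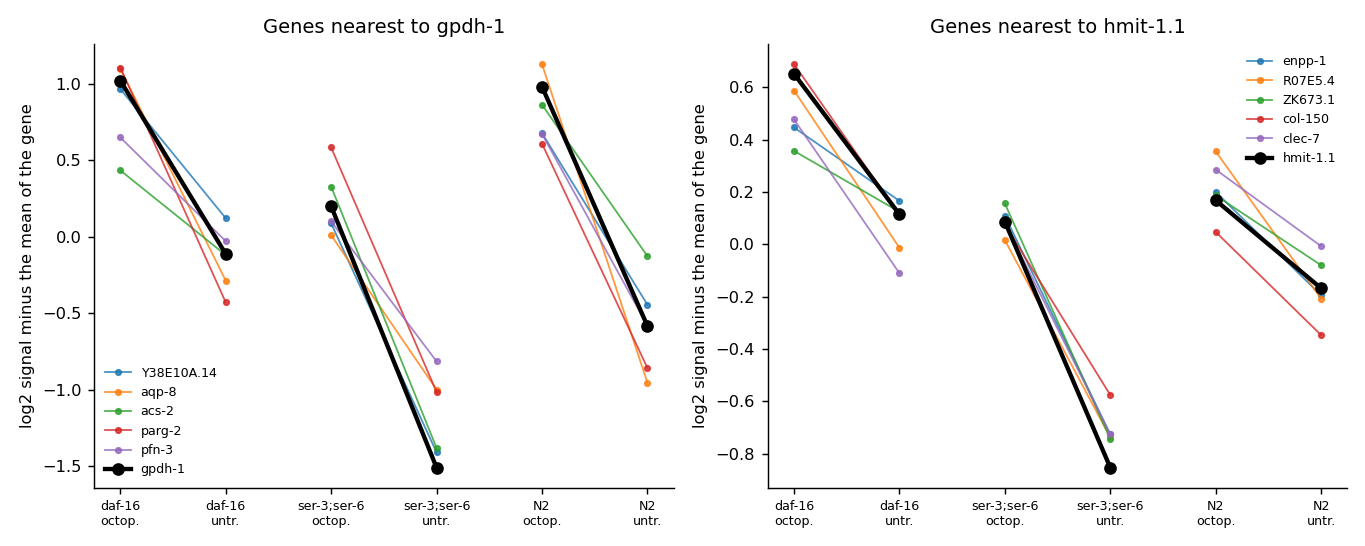
Log2 signal of gpdh-1 (left panel, thick black) and hmit-1.1 (right panel, thick black), each with its 5 nearest genes, minus the gene's mean over the 6 arrays, with the treated array left of the untreated array of each strain. In both panels all 6 genes are lower on the untreated than on the treated array of each strain, and lowest in untreated ser-3;ser-6 for gpdh-1 and hmit-1.1. The nearest genes were chosen for closeness over these same arrays, which favours a shared pattern.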

How the data were processed

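Single-colour Affymetrix arrays of biotin-labelled total RNA gave 1 column of linear intensity values per group; these intensity values were used as the authors deposited them, and the probe summary and normalization behind them are not given in the sources used here. Of 22625 probe sets, 77 controls were left out. The platform annotation gave 20766 of the rest 1 gene, 887 several (assigned to none) and left 895 unnamed. Values were converted to log2 with no pseudocount. Array medians spanned 0.13 (tolerance 0.1), so each median was subtracted. For each gene the probe set with the highest mean was used, and genes at or above the 40th percentile of mean signal (15.5) were kept. The additive model was fitted with limma 3.58.1 in R 4.3.3 (mean-variance trend, 2 residual and 6.28 prior degrees of freedom) and tested on simulated data. Other steps used Python 3.11.15, pandas 2.3.3 and matplotlib 3.10.9.

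The members and lists were chosen with earlier results of these data known. Named were all members, pathway genes past the threshold or discussed in a count, targeted genes, and the 5 nearest genes to gpdh-1 and hmit-1.1; pathway genes that did not pass but are given with values were chosen after their values were seen. Alternatives changed scaling, filter, probe set, pseudocount, trend and the strain pairs. Sequences were not used here, and 1 member is not reported here.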

Additional observations from a re-analysis of the deposited data

Results flagged for a closer look

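The direction of the octopamine ratio differed between strains for 3 of the 7 measured genes. Each strain is 1 pair of arrays, and the differences were not tested. For hmit-1.3 the log2 ratio was 0.10 in daf-16, -0.58 in ser-3;ser-6 and -0.19 in N2. For wnk-1 it was -0.13 in daf-16, 0.23 in ser-3;ser-6 and 0.20 in N2, but the other wnk-1 probe set had 0.20 in daf-16. For osr-1 it was -0.44 in daf-16, 0.035 in ser-3;ser-6 and -0.34 in N2, at signals of 18.2 to 26.2.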

How the results depend on the processing

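The rises of gpdh-1, gpdh-2 and hmit-1.1 kept their direction and passed under every alternative in which they had a value; gpdh-2 had none with shared probe sets left out. Leaving out each strain pair gave changes of 1.35 to 1.63 for gpdh-1, 0.51 to 0.69 for gpdh-2, 0.44 to 0.74 for hmit-1.1, 0.22 to 0.43 for hmit-1.2, -0.38 to -0.04 for hmit-1.3, 0.04 to 0.22 for wnk-1 and -0.39 to -0.15 for osr-1; hmit-1.2 and osr-1 passed without the ser-3;ser-6 pair. The gpdh-2 ratio in ser-3;ser-6 was 0.56 with probe sets averaged and 0.35 on the other probe set, and that of wnk-1 in daf-16 was 0.20 on its other probe set, an alternative chosen after seeing the data. The gpdh-1 difference of ser-3;ser-6 from N2 was -0.75 after quantile normalization and -0.85 without the trend, neither passing. Differences near 0 of ser-3;ser-6 from N2 changed sign: gpdh-2 to -0.044 with probe sets averaged, hmit-1.2 to 0.042 as deposited, osr-1 to -0.011 after quantile normalization and to -0.0026 with a pseudocount of 16.

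With octopamine 755 genes rose and 1511 fell, a split that other scalings moved, with 956 rising and 1004 falling as deposited and 972 rising and 877 falling after quantile normalization; 482 rose with shared probe sets left out, and without 1 strain pair 322 to 890 rose and 729 to 1765 fell, fewest without N2. In the 6 lists, members included, 8 genes rose and 4 fell; with shared probe sets left out 5 rose and 1 fell, after quantile normalization 2 fell, and without 1 strain pair 4 to 11 rose and 2 to 6 fell. Between daf-16 and N2, 4 genes were higher and 21 lower, against 2 and 4 without the trend, and 31 and 116 without the ser-3;ser-6 pair. Between ser-3;ser-6 and N2, 41 were higher and 228 lower; 122 were lower as deposited, 91 after quantile normalization and 76 without the trend, which left 11 higher, and without the daf-16 pair 139 were higher and 548 lower. The cause of these moves was not tested, except that leaving out shared probe sets tests fewer genes. Dim signals limit hmit-1.2 and osr-1. The strain term pairs each treated array with the untreated array of its strain. Beyond this, no paired analysis was possible because every group has only 1 array, all with the same replicate number.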

Other observations

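The glycerol-3-phosphate phosphatase genes pgph-1, pgph-2 and pgph-3, whose products release glycerol from glycerol 3-phosphate, share 1 probe set that cannot be assigned to any one of them and was not tested. Its signals were 1902 in daf-16, 1358.5 in ser-3;ser-6 and 1917 in N2 with octopamine, against 692 in daf-16, 619 in ser-3;ser-6 and 594 in N2 without it. The log2 ratios were 1.42 in daf-16, 1.08 in ser-3;ser-6 and 1.60 in N2, at least 2-fold in each strain. Among the genes tested, which leave this probe set out, 0.4% were at least 2-fold higher in all 3 strains.

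Of the protein-coding neighbours of the measured genes, gadr-6, next to gpdh-1, changed in the opposite direction from it, falling by 0.97 ± 0.10 on the log2 scale (SE, limma adjusted p = 0.000760), while F47G4.4 on the other side of gpdh-1 had 0.11 ± 0.11 (SE, limma adjusted p = 0.493). Both were named after their values were seen.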
